A study of Ovis aries with 15 samples.

Results

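Tumour necrosis factor (TNF) and 3 genes of its receptor signalling were measured in the kidney cortex of late-gestation sheep fetuses with a 1-colour Agilent gene array. The 4 genes are TNF, the receptor TNFRSF1A, the decoy receptor TNFRSF11B and the adaptor TRAF3. They were chosen by the gene name given for each probe in the scanner files, and the 2 TNFRSF11B probes, whose files carry a placeholder locus name and describe osteoprotegerin, were named through the RefSeq gene number. The 4 genes have 6 probes among the 15008 on the array, and they are 4 of the 1024 genes that could be named there. All 6 probes entered the fit of 12928 probes. 5 of them were well above background on all 15 arrays, and TNFRSF11B probe 2 was so on 10.

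Each array held the cortex of 1 fetus (Ovis aries, 125 ± 3 days of gestation), and each fetus lived with indwelling catheters. 8 fetuses underwent 30 min of hypoxia, made by lowering the oxygen their mother was ventilated with, and 7 underwent 30 min of normoxia. The fetus received ketamine, an NMDA-receptor-blocking anaesthetic, at 3 mg/kg into a vein, or the saline vehicle, 10 min before that period. This gave 3 normoxic and 4 hypoxic fetuses with vehicle, and 4 normoxic and 4 hypoxic ones with ketamine. The cortex was taken 24 h after the onset. It is a whole tissue, so fewer cells of a type and less RNA per cell cannot be told apart in any value here.

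TNF is made as a membrane protein, mostly by macrophages, and also by kidney tubule cells under stress; a metalloprotease sheds it as a soluble cytokine. It binds TNFRSF1A, whose death domain assembles adaptors that switch on the transcription factors NF-kB and AP-1 and can start cell death. TNFRSF11B, or osteoprotegerin, is a secreted receptor without a membrane anchor that catches the TNF family ligands TNFSF11 and TNFSF10. TRAF3 is an adaptor below other receptors of the family, such as CD40, where it holds back the non-canonical NF-kB pathway, and it serves type I interferon induction.

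The probes for the receptor TNFRSF1A and for the decoy receptor TNFRSF11B are shown because a value counts only the stretch that its probe matches. Each is 60 bases long, and all are given in lower case, 5′ to 3′, as the scanner files list them. The TNFRSF1A probe starts at base 554 of its transcript record. TNFRSF11B probes 1 and 2 start at bases 618 and 487 of theirs, which is a partial coding sequence. So 71 bases lie between these 2 probes and they share none.

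TNFRSF1A: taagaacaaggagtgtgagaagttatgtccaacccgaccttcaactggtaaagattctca

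TNFRSF11B probe 1: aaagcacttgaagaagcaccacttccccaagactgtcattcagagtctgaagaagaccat

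TNFRSF11B probe 2: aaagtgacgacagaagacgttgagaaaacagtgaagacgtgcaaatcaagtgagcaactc

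The 2 TRAF3 probes start 1 base apart and share 59 bases, so they are in effect repeated readings of 1 site. TNF has a single probe. Values below are the signal as a percentage of that array's 75th-percentile signal. They compare fetuses for 1 probe and do not compare probes with each other.

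The arrays were alike in 75th-percentile signal, which lay between 1064 and 1425. On the array of hypoxia with ketamine replicate 4, 75.6% of probes were well above background, against 81.0% to 85.2% on the others. The lowest signal well above background was 18.7 on that array, against 6.97 to 10.9 on the others. Proximal tubule markers were bright in every fetus. Their summed level ran from 4568%, in hypoxia with vehicle replicate 4, to 9261%, in replicate 2 of that group. Placental lactogen (CSH1), a trophoblast transcript, was well above background on 3 arrays, those of replicates 1 and 2 with normoxia and ketamine and of replicate 2 with hypoxia and ketamine. The 2 arrays farthest from the rest on the first principal component were hypoxia with vehicle replicate 4 and hypoxia with ketamine replicate 2. The arrays came from 2 slides, each with fetuses of all 4 groups, but slide 2 with only 1 of normoxia and vehicle.

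TNF was the gene of the 4 that differed most between groups. In normoxia with vehicle its signal was 4.14%, 4.36% and 4.78%. In normoxia with ketamine it was 6.2%, 4.41%, 3.09% and 3.30%. In hypoxia with vehicle it was 81.1%, 41.5%, 36.5% and 233%, in replicate order. All 4 of these fetuses lay far above all 7 normoxic ones, and replicate 4 stood highest. In hypoxia with ketamine it was 6.91%, 40.5%, 5.47% and 12.2%. 3 of these 4 lay below every fetus with hypoxia and vehicle, while replicate 2, which is also 1 of the placental lactogen arrays, lay between the lowest pair of that group. The lowest value, 5.47%, lay below the highest normoxic fetus with ketamine and above all those with vehicle.

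**Figure D1:**
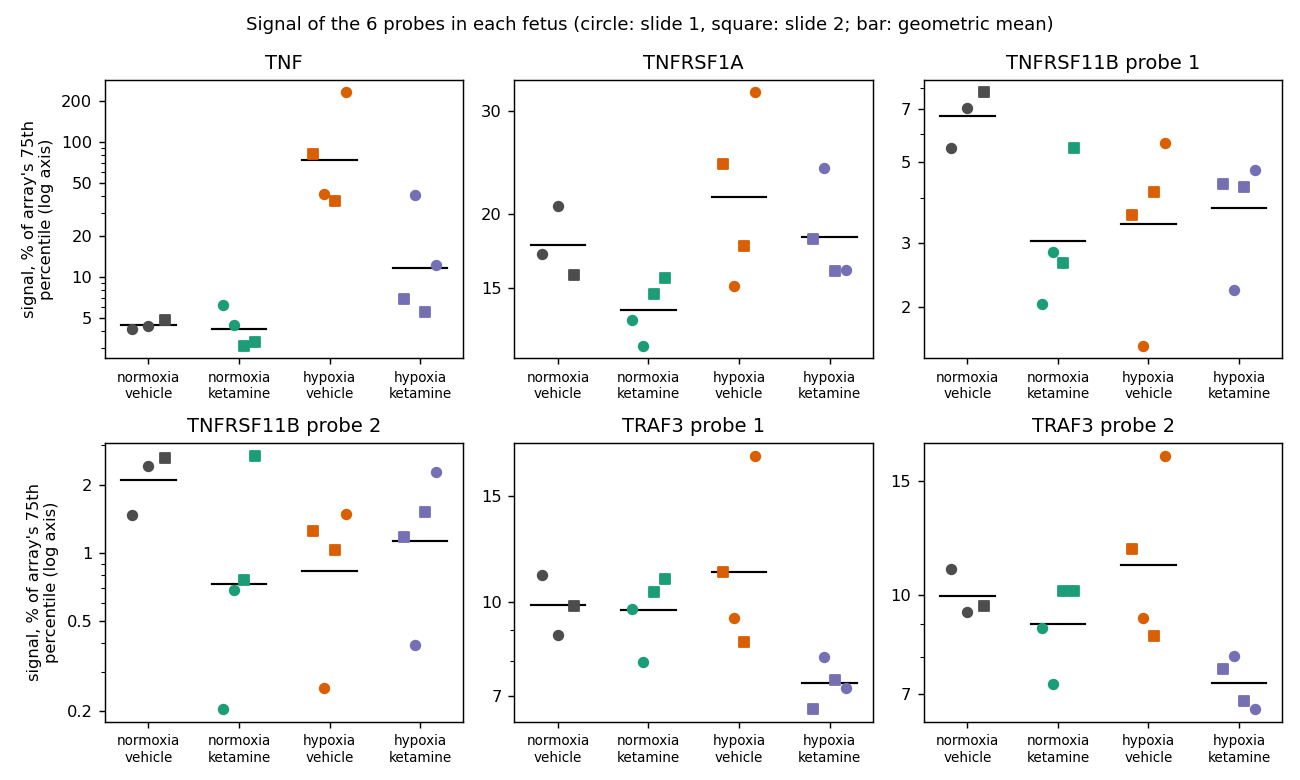
Signal of each of the 6 probes in each of the 15 fetuses, as a percentage of the array's 75th-percentile signal on a log axis, by group; circles are slide 1, squares slide 2, and the bar is the geometric mean. TNF in hypoxia with vehicle spans 36.5% to 233%, above the 3.09% to 6.2% of all normoxic fetuses, and both TRAF3 probes are lowest in hypoxia with ketamine.

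After hypoxia with vehicle, TNF rose 16.5-fold (95% interval 6.10 to 44.9), a log2 change of 4.05 ± 0.67 (SE; limma adjusted p = 0.0655 over all probes tested). By p it ranked 6 of 12928 probes. The groups did not overlap, and the exact permutation test gave p = 0.0571, the smallest that 3 against 4 fetuses allow. Beside it, 16.1% of all probes tested passed p of at most 0.05 in this comparison, 5.77% higher and 10.4% lower, and 5.03% were higher without overlap. Only 2 probes of all tested, or 0.0155%, passed the adjusted threshold, and TNF was not one of them. The log2 change was 4.53 within slide 1 and 3.51 within slide 2.

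After hypoxia with ketamine, TNF rose 2.86-fold (1.13 to 7.20), a log2 change of 1.52 ± 0.62 (limma adjusted p = 0.522), past the unadjusted threshold. The groups overlapped and the exact permutation p was 0.0571. In this comparison 8.67% of all probes passed, 3.71% of all higher, and 0% passed after adjustment. The call was lost on leaving out any of 4 fetuses: the change was 0.92 without hypoxia and ketamine replicate 2, 1.5 without replicate 4 of that group, and 1.38 and 1.41 without replicates 3 and 4 of normoxia and ketamine. It was 2.09 within slide 1 and 0.94 within slide 2, where it did not pass.

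Between the hypoxic groups, TNF was 6.26-fold lower with ketamine than with vehicle (2.48 to 15.8), a log2 change of -2.65 ± 0.62 (limma adjusted p = 0.800). By p it ranked 9 of all probes tested, past the unadjusted threshold. The groups overlapped through ketamine replicate 2, and the exact permutation p was 0.0571. Here 6.07% of all probes passed, 3.49% of all lower, and 0% after adjustment. Leaving out each array in turn gave changes from -3.24, without ketamine replicate 2, to -2.09, without vehicle replicate 4, and the call held each time. The change was -2.15 within slide 1 and -3.15 within slide 2.

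In normoxia the TNF signal with ketamine and with vehicle differed by a log2 change of -0.11 ± 0.67 (95% interval -1.55 to 1.33, limma adjusted p = 0.9998, exact permutation p = 0.743), and the sign turned when slide was a block, in slide 1 alone and without replicate 3 of the ketamine group. The hypoxia change with ketamine was smaller than that with vehicle on the log2 scale, a difference of -2.53 ± 0.91 (limma interaction, adjusted p = 0.989), past the unadjusted threshold. For this difference 3.15% of all probes passed, 1.1% of all in the same direction, and 0% after adjustment. The difference was -2.45 within slide 1, where it did not pass, and -2.56 within slide 2.

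In order of level, the geometric mean of TNF was 4.09% in normoxia with ketamine, 4.42% in normoxia with vehicle, 11.7% in hypoxia with ketamine and 73.1% in hypoxia with vehicle. The first pair did not differ beyond their spread. The middle pair, compared after the data were seen, missed the threshold (log2 change 1.40 ± 0.67, limma adjusted p = 0.540, exact permutation p = 0.0571). Its groups did not overlap, but the share of all probes without overlap in this pair was not counted. The spread among fetuses also differed: the SD on the log2 scale was 0.10 and 0.46 in the normoxic groups against 1.22 with hypoxia and vehicle and 1.29 with hypoxia and ketamine. The highest fetus exceeded the lowest 6.38-fold in the one and 7.41-fold in the other hypoxic group.

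**Figure D2:**
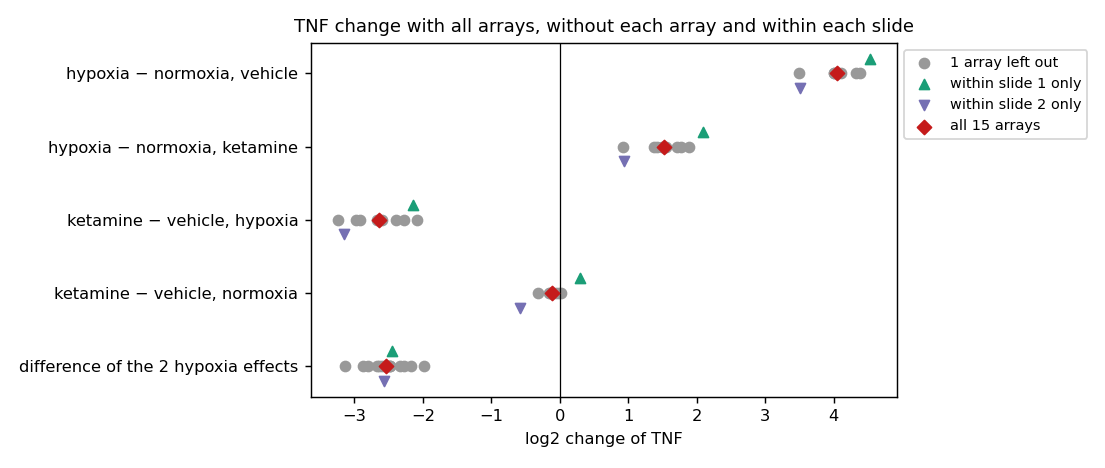
Log2 change of TNF in the 5 comparisons with all 15 arrays (diamonds), with 1 array left out (grey circles) and within slide 1 or slide 2 (triangles). The rise after hypoxia with vehicle stays between 3.49 and 4.38 on leaving out any array, while the change with ketamine in normoxia lies on both sides of 0.

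Markers of monocytes and macrophages, the main producers of TNF, moved with hypoxia too. 8 of the 13 genes on that list were on the array and 6 were well above background on all 15. Their summed level ran from 138% to 146% with vehicle and 124% to 153% with ketamine in normoxia, and from 165% to 624% with vehicle and 177% to 580% with ketamine in hypoxia. After hypoxia with vehicle 5 of the 8 rose (CD14, FCGR1A, FCGR2B, FCER1G and CD86), where 5.77% of all probes rose. After hypoxia with ketamine 4 rose (the same without CD14), where 3.71% of all probes did. Between the hypoxic groups 0 passed in either direction, where 6.07% of all probes passed. In each of these comparisons 0 of the 8 passed after adjustment. The fetus with the highest TNF, hypoxia with vehicle replicate 4, had a marker sum of 253%, and replicate 1, next in TNF, had the lowest sum of its group, 165%. Replicate 3, highest in the marker sum, had the lowest TNF of that group. In hypoxia with ketamine replicate 2 was the highest in both. CATHL3, a neutrophil cathelicidin, was the only neutrophil marker of 10 on the array. It reached 2900% and 720% in replicates 3 and 2 of hypoxia with vehicle, and 2138% and 788% in replicates 2 and 4 of hypoxia with ketamine. In normoxia it ran from 17.4% to 209%. It stayed inside that range in replicates 1 and 4 of hypoxia with vehicle (48.4% and 86.6%). The same held for replicates 1 and 3 of hypoxia with ketamine (105% and 91.2%). The log2 change of CATHL3 after hypoxia was 1.57 ± 1.35 with vehicle, which did not pass (limma adjusted p = 0.586). With ketamine it was 3.17 ± 1.25, which passed (limma adjusted p = 0.515). In each hypoxic group the fetus highest in the monocyte and macrophage sum was also the highest in CATHL3. Whether neutrophils add to that sum was not tested. The part of these cells in the TNF values was not tested.

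TNFRSF1A, the receptor that carries TNF's signal in most cells, passed in 0 of the 5 comparisons. Its signal was 17.1%, 20.7% and 15.8% in normoxia with vehicle, and 13.2%, 12%, 14.7% and 15.6% in normoxia with ketamine. In hypoxia it was 24.4%, 15.1%, 17.7% and 32.2% with vehicle, and 18.2%, 24.0%, 16.0% and 16.1% with ketamine. All 4 normoxic fetuses with ketamine lay below every fetus of normoxia with vehicle and every fetus of hypoxia with ketamine.

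The log2 change of TNFRSF1A after hypoxia was 0.27 ± 0.23 with vehicle (95% interval -0.23 to 0.77, limma adjusted p = 0.585, exact permutation p = 0.457). With ketamine it was 0.41 ± 0.21 (-0.06 to 0.87, limma adjusted p = 0.649). In that comparison the exact permutation test gave p = 0.0286, the smallest that 4 against 4 allow, and 2.82% of probes were higher without overlap. Ketamine against vehicle gave -0.23 ± 0.21 in hypoxia (-0.69 to 0.24) and -0.36 ± 0.23 in normoxia (-0.86 to 0.14, exact permutation p = 0.0571). In normoxia 2.71% of probes passed, and 4.57% were lower without overlap. The change after hypoxia with ketamine was past the threshold under the normexp background correction (0.43), in the fit of the 2 groups alone and without hypoxia and vehicle replicate 4. The difference of the hypoxia changes was 0.14 ± 0.32 (limma adjusted p = 0.989).

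From low to high the geometric means of TNFRSF1A were 13.8% in normoxia with ketamine, 17.8% in normoxia with vehicle, 18.3% in hypoxia with ketamine and 21.4% in hypoxia with vehicle. The first pair of neighbours did not overlap, passed in the fit of the 2 groups alone and missed the threshold in the fit of all groups. The other neighbours overlapped. The ends of the order, compared after the data were seen, differed by 0.63 ± 0.21 on the log2 scale (limma adjusted p = 0.193, exact permutation p = 0.0571).

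TNFRSF11B, the decoy, was highest in the fetuses with neither exposure. Probe 1 read 5.47%, 7.05% and 7.79% in normoxia with vehicle. It read 2.04%, 2.84%, 2.65% and 5.49% in normoxia with ketamine. It read 3.59%, 1.57%, 4.15% and 5.65% in hypoxia with vehicle, and 4.37%, 2.23%, 4.28% and 4.78% in hypoxia with ketamine. Of the 12 treated fetuses, only normoxia with ketamine replicate 4 and hypoxia with vehicle replicate 4 reached the lowest of the 3 control fetuses.

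By probe 1, TNFRSF11B fell 1.98-fold after hypoxia with vehicle (log2 change -0.98 ± 0.42, limma adjusted p = 0.274), where 10.4% of all probes fell. It fell 2.21-fold with ketamine in normoxia (-1.14 ± 0.42, limma adjusted p = 0.9998), where 1.76% of probes were lower at that threshold. The exact permutation test gave p = 0.114 for both, so the calls rest on the limma threshold alone. After hypoxia with ketamine the log2 change was 0.31 ± 0.39 (95% interval -0.53 to 1.14), and between the hypoxic groups it was 0.15 ± 0.39 (-0.69 to 0.98). The 2 hypoxia changes differed by 1.29 ± 0.57 (limma interaction, adjusted p = 0.989), where 2.05% of probes passed in that direction.

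These 3 calls rest on few fetuses. The fall after hypoxia was lost without replicate 2 or 3 of normoxia with vehicle (-0.95 and -0.87) or replicate 2 of hypoxia with vehicle (-0.61), and the fall with ketamine without replicate 3 of normoxia with vehicle or replicate 1 of normoxia with ketamine (-1.03 and -0.95). The interaction call was lost in 10 of the 15 fits that left out an array, with values from 0.92 to 1.58. Within slides 1 and 2 the fall after hypoxia was -1.06 and -1.01, the fall with ketamine -1.37 and -1.03, and the interaction 1.5 and 1.19, and none of these passed; slide 2 has 1 fetus of normoxia with vehicle, assumed there to vary like the other groups.

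TNFRSF11B probe 2 was dimmer, and was well above background in 3 of 3 and 1 of 4 normoxic fetuses with vehicle and with ketamine, and in 3 of 4 hypoxic fetuses under either. Its changes, which rest in part on signals not well above background and so have no exact size, passed in 0 of the 5 comparisons: -1.33 ± 0.81 after hypoxia with vehicle (exact permutation p = 0.114), -1.52 ± 0.81 with ketamine in normoxia (exact permutation p = 0.229) and 1.95 ± 1.1 for the interaction. The change with ketamine in normoxia passed without replicate 4 of that group (-2.15), and the interaction passed without that array (2.58) or without hypoxia and ketamine replicate 2 (2.46). Over the 15 arrays the 2 probes followed each other (Pearson r = 0.938, Spearman rho = 0.911), while their log2 difference ranged from 1.03 to 3.32.

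TRAF3 was lowest in the fetuses with both exposures. Probe 1 read 11.1%, 8.82% and 9.85% in normoxia with vehicle, and 9.74%, 7.96%, 10.4% and 10.9% in normoxia with ketamine. It read 11.2%, 9.44%, 8.59% and 17.5% in hypoxia with vehicle and 6.66%, 8.14%, 7.45% and 7.22% in hypoxia with ketamine. The last group lay below every fetus of hypoxia with vehicle and of normoxia with vehicle, and only its highest fetus passed the lowest of normoxia with ketamine. The share of all probes that lay so against normoxia with vehicle was not counted. Replicate 4 of hypoxia with vehicle stood far above the other 14.

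Between the hypoxic groups TRAF3 was 1.53-fold lower with ketamine by both probes: the log2 change was -0.61 ± 0.19 by probe 1 (limma adjusted p = 0.800) and -0.61 ± 0.18 by probe 2 (limma adjusted p = 0.800). The groups did not overlap, as for 0.928% of probes in that direction, and the exact permutation p was 0.0286. The call held on leaving out any array, with probe 1 from -0.74 to -0.40. With the normexp correction it was lost for both (-0.22 and -0.21). Within slides 1 and 2 probe 1 gave -0.74, which did not pass, and -0.48. Probe 2 gave -0.75 and, without passing, -0.48.

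TRAF3 probe 1 changed by 0.18 ± 0.21 after hypoxia with vehicle (95% interval -0.26 to 0.63) and by -0.40 ± 0.19 after hypoxia with ketamine (-0.81 to 0.01, limma adjusted p = 0.594, exact permutation p = 0.0571). The first turned its sign without replicate 4 of hypoxia with vehicle (-0.03). The second was past the threshold without replicate 2 of normoxia with ketamine or without replicates 3 or 4 of hypoxia with vehicle. In normoxia ketamine against vehicle gave -0.03 ± 0.21 (-0.47 to 0.42), and the sign turned under quantile normalization and median scaling (0.03 and 0.02). The interaction was -0.58 ± 0.28 by probe 1 and -0.47 ± 0.27 by probe 2 (limma adjusted p = 0.989 for both). The 2 probes differed by no more than 0.20 on the log2 scale on any array (Pearson r = 0.960, Spearman rho = 0.964).

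**Figure D3:**
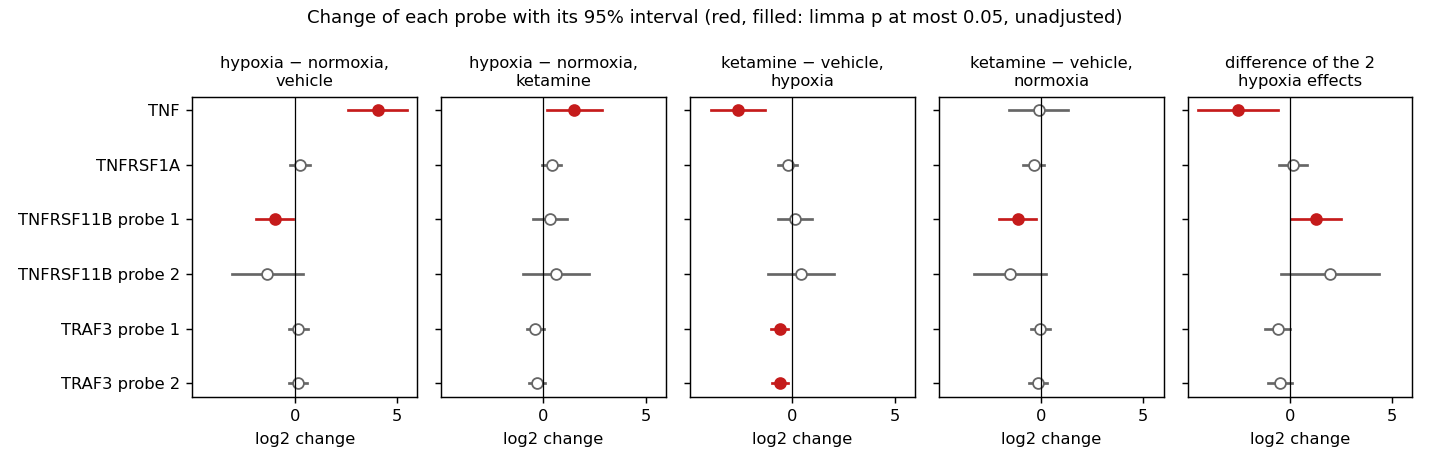
Log2 change of each of the 6 probes in the 5 comparisons, with its 95% interval; red filled points have an unadjusted limma p of at most 0.05. TNF is the probe that passes in 4 of the 5 panels, and both TRAF3 probes pass between the hypoxic groups only.

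Of the 6 probes, then, 2 passed after hypoxia with vehicle (TNF higher, TNFRSF11B probe 1 lower), where 16.1% of all probes passed. After hypoxia with ketamine 1 passed (TNF), where 8.67% of all did. Between the hypoxic groups 3 passed (TNF and both TRAF3 probes, lower), where 6.07% of all did, and the TRAF3 probes read 1 site. For ketamine in normoxia 1 passed (TNFRSF11B probe 1), where 2.71% of all did. For the interaction 2 passed (TNF and TNFRSF11B probe 1), where 3.15% of all did. 0 passed after adjustment over all probes in any of the 5. All 4 comparisons of 2 groups share groups with one another, so their values are not independent. In hypoxia with vehicle, replicate 4 was the highest fetus of its group for all 6 probes.

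The other genes of the pathway came from a list of 79 ligands, receptors, adaptors, kinases, death genes, transcription factors, regulators of TNF release and genes that TNF induces. 30 were on the array and 26 passed the filter on dim probes, 4 of them the genes above. That left 22, with 1 probe a gene, the brightest. Of the 13 adaptors only TRAF3 was on the array, and of the 9 kinases only IKBKB.

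After hypoxia with vehicle, 12 of the 22 rose and 0 fell, where 5.77% of all probes rose and 10.4% fell. The median log2 change of the 22 was 1.74 against -0.05 over all probes tested. The count was 8 without hypoxia and vehicle replicate 4, 7 in the fit of the 2 groups alone and 1 within slide 2. 7 of the 10 TNF-induced genes rose. The chemokine CXCL8, which draws neutrophils, rose 23.6-fold (4.56 ± 1.24, limma adjusted p = 0.164). Its level went from 4.48% to 5.73% in normoxia with vehicle to 16.7% to 799% in hypoxia with vehicle, and the lowest hypoxic fetus was still above the highest normoxic one.

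The pattern recognition protein PTX3 rose 32.8-fold (5.04 ± 1.41), the cytokine IL1B 11.8-fold (3.56 ± 0.78) and the chemokine CXCL10 10.2-fold (3.35 ± 1.54). The CXCL10 call was lost in 11 of the 15 fits that left out an array, and the change was 1.82 without hypoxia and vehicle replicate 4. IL6 passed too (limma adjusted p = 0.173). It was well above background in 0 of 3 fetuses of normoxia with vehicle and in 2 of 4 of hypoxia with vehicle. With the normoxic signals raised to the lowest signal measurable, it was 26.9-fold higher. The hypoxic fetuses not well above background entered as measured, so that value is not a lower bound and the change has no exact size. The AP-1 subunit JUNB rose 6.94-fold (2.79 ± 0.74). The other 6 that rose were ICAM1, the endothelial adhesion molecule, NFKBIA, which holds NF-kB in the cytoplasm, CD40, ZFP36, which speeds the decay of TNF mRNA, IKBKB and JUN. JUN passed by the brightest of its 2 probes only (0.47, and 1.08 by the other). ZFP36 passed by both of its probes, with 1.39 by the brightest and 3.03 by the other. 7 of the 12 reached the smallest exact permutation p that 3 against 4 allow (0.0571), and the others gave up to 0.171. FOS (2.10), BCL2 (0.45), SOD2, FAS, PTGS2, TIMP3 and TNFSF13B were above 0 without passing, and CD40LG and MMP9 were at -0.02 and -0.13.

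After hypoxia with ketamine, 1 of the 22 rose and 0 fell, a share near the 3.71% of all probes that rose. The median was 0.70 against -0.02 over all probes. The gene was CXCL10, 8.87-fold higher (3.15 ± 1.42, limma adjusted p = 0.561, exact permutation p = 0.0571), and 20 of the 22 values lay above 0. The CXCL10 call was lost in 9 of the 15 fits that left out an array. IL1B did not pass (0.89 ± 0.72, limma adjusted p = 0.800). Its groups did not overlap, as for 2.82% of all probes in that direction, and its exact permutation p was 0.0286. PTX3 passed by its other probe (2.91) but not by the brightest, which was counted (2.66 ± 1.30). The count was 0 to 2 on leaving out each array. It was 5 in the fit of the 2 groups alone.

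Between the hypoxic groups 9 of the 22 were lower with ketamine and 0 higher, where 3.49% of all probes were lower, with a median of -1.31 against 0.02 over all probes. All 3 transcription genes of the list on the array were among them: NFKBIA 3.01-fold lower (-1.59 ± 0.50, limma adjusted p = 0.800), FOS 4.12-fold (-2.04 ± 0.93) and JUN 1.44-fold. CXCL8 was 9.93-fold lower (-3.31 ± 1.14), IL1B 6.56-fold (-2.71 ± 0.72), JUNB 4.47-fold (-2.16 ± 0.69) and PTGS2, the inducible cyclooxygenase, 3.52-fold (-1.81 ± 0.84). ZFP36 and BCL2, the inhibitor of cell death, were lower too. By its other probe JUN changed by -1.60, against -0.52 by the brightest, and both passed. ZFP36 changed by -2.59 by its other probe, against -1.27 by the brightest, and both passed. FOS passed by 2 of its 4 probes. On leaving out each array the PTGS2 call was lost in 13 of 15 fits, with -1.11 without hypoxia and vehicle replicate 4, and the FOS call in 10 of 15, with -1.29 without replicate 1 of that group. IL6 had a value of -3.87 that did not pass. It was well above background in 2 of 4 hypoxic fetuses with vehicle and 3 of 4 with ketamine, so that value has no exact size. By the exact permutation test the 9 ranged from p = 0.0286, for BCL2, to p = 0.400, for PTGS2. The count was 14 without hypoxia and vehicle replicate 2 and 5 without replicate 4 of that group, and was 2 within slide 1 and 1 within slide 2.

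In normoxia 0 of the 22 passed in either direction with ketamine, a share near the 2.71% of all probes that passed. The median was -0.06 against -0.02 over all probes. For the interaction 2 passed, both lower, where 3.15% of all probes passed and 1.1% of all were lower. These were IL1B (-2.66 ± 1.06) and NFKBIA (-1.74 ± 0.74, limma adjusted p = 0.989 for both). The NFKBIA call was lost in 8 of the 15 fits that left out an array. That count ranged from 0 to 7 on leaving out each array. In hypoxia with vehicle, replicate 4 was the highest fetus for 10 of the 15 list genes that passed anywhere and replicate 1 for the other 5.

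**Figure D4:**
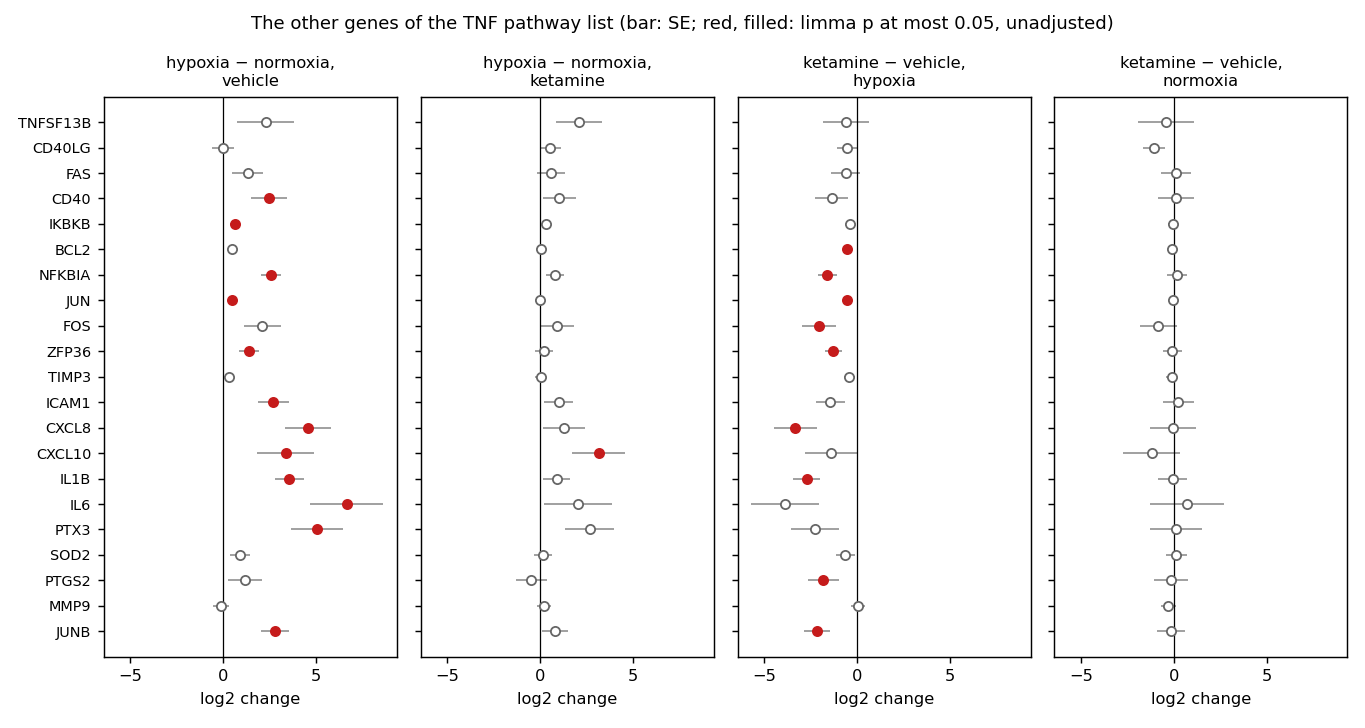
Log2 change, with SE, of 21 of the 22 other genes of the TNF pathway list in the 4 comparisons of 2 groups; red filled points have an unadjusted limma p of at most 0.05. 12 genes are past it to the right of 0 after hypoxia with vehicle and 9 to the left of 0 between the hypoxic groups; the IL6 point in the first panel is a fitted value for a gene not well above background in normoxia with vehicle.

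Likeness of pattern was measured as Pearson correlation over the 15 arrays, against 1 probe for each other named gene (881 genes for TNF, 822 for the others, which had to be well above background on 10 arrays). All points share the 4 groups and 2 slides. TNF was most like IL1RN, the interleukin 1 receptor antagonist (r = 0.941, rho = 0.757), NFKBIA (r = 0.926, rho = 0.779), the interferon regulatory factor IRF1 (r = 0.922, rho = 0.886) and IL1B (r = 0.921, rho = 0.968). Without the 2 fetuses farthest from the median of TNF, replicates 4 and 1 of hypoxia with vehicle, these were 0.891, 0.838, 0.853 and 0.942. With the group means taken out they were 0.839, 0.732, 0.911 and 0.722.

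TNFRSF1A was most like a gene listed as LOC100191065 (r = 0.937, rho = 0.814), FGFR1 (0.890, rho = 0.900), IRF2 (0.887, rho = 0.764) and FOS (0.881, rho = 0.789). With the group means taken out these were 0.940, 0.875, 0.819 and 0.858, and without the same 2 fetuses as for TNF 0.846, 0.773, 0.759 and 0.804. TRAF3 was most like the translation initiation genes EIF3A (r = 0.884, rho = 0.925) and EIF4GI (0.862, rho = 0.857), then JUND (0.843, rho = 0.846) and CCN1 (0.818, rho = 0.682). Without replicate 4 of hypoxia with vehicle and replicate 1 of hypoxia with ketamine, the farthest for TRAF3, these ran from 0.890 for EIF3A to 0.655 for CCN1. TNFRSF11B had no gene above r = 0.655 (rho = 0.475), that of PPP1R12A, followed by AKT1 (0.631, rho = 0.736), FBLN1 (0.596, rho = 0.564) and FGFR2 (0.591, rho = 0.479). Without replicate 2 of hypoxia with vehicle and replicate 1 of normoxia with ketamine the order turned, with 0.509 for PPP1R12A and 0.745 for AKT1, 0.627 for FBLN1 and 0.654 for FGFR2.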

How the data were processed

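Values are scanner intensity: the deposited files hold Agilent Feature Extraction 10.1.1.1 output, and the processed signal was background-corrected by that software, per the file headers. Here log2 of the processed signal minus each array's 75th percentile was used, without control spots and outlier spots. Probes well above background on at least 3 of 15 arrays were fitted together in limma 3.58.1 (R 4.3.3), 1 mean per group; the script was tested on simulated data. A probe passed, rose or fell where its unadjusted limma p was 0.05 or less, the threshold of the study; Benjamini-Hochberg values run over all 12928 probes. Exact permutation tests are two-sided. Those of list genes were added after the data were seen. Replicates are separate fetuses; their number limits the precision. The authors' deposited log2 value table (11705 probes) served as an alternative: scale and medians (8.98 to 8.99) are like quantile-normalized log2 values, what else was done to it is not known, and 12 of its 15 columns track another array of the same group best. Genes were named by the rule of all members, list genes past the threshold (6 largest with values) and the 4 most alike. The members and lists were chosen with earlier results of these data known. No genome coordinates were used. The TNF and TRAF3 probe sequences and the values of 1 list gene are not reported here.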

Additional observations from a re-analysis of the deposited data

Results flagged for a closer look

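TNFRSF11B probe 1 in hypoxia with ketamine had 1 fetus, replicate 2, apart below the other 3. The gap to its neighbour was 0.853 of the group's range on the log2 scale, above Dixon's limit, which chance passes in about 1 group in 20. Each of the 6 probes was checked in every group of 4 fetuses, so 1 such fetus is about what chance gives. The hypoxia effect differed between ketamine and vehicle fetuses by the unadjusted limma interaction test for TNF (-2.53), TNFRSF11B probe 1 (1.29), NFKBIA (-1.74) and IL1B (-2.66), each as a log2 difference with an adjusted p of 0.989.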

How the results depend on the processing

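TNF kept its direction and call after hypoxia with vehicle (3.49 to 4.38 on leaving out arrays) and between the hypoxic groups (-3.24 to -2.09) under all alternatives run. Few fetuses a group, and for TNFRSF11B probe 2 a signal near background, limit the rest; apart from fewer arrays in subsets, the cause of each change below was not tested. The labels give replicate numbers without stating a pairing. Of same-numbered pairs 3 of 21 correlated above 0.1 (-0.29 to 0.37, median 0.038), against 7 of 63 different-numbered pairs (-0.28 to 0.29, median -0.003). Of the 15 arrays 7 correlated best with their own number. These values do not decide whether the numbers mark pairs. With the replicate block TRAF3 probe 1 passed after hypoxia with ketamine (-0.40), TNFRSF11B probe 2 passed after hypoxia with vehicle (-1.75), and 1 list gene passed for the interaction.

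Probes past the threshold numbered 2086 after hypoxia with vehicle, 1121 after hypoxia with ketamine, 785 for ketamine in hypoxia, 350 for ketamine in normoxia and 407 for the interaction. After hypoxia with vehicle they were 1255 with normexp, 1203 within slide 1 and 664 within slide 2 (1304 to 2453 on leaving out each array). After hypoxia with ketamine they were 606 within slide 1 and 1817 with array weights (832 to 1341). For ketamine in hypoxia they were 399 with normexp, 276 within slide 1, 432 in the fit of the 2 groups alone, 1461 without the placental lactogen arrays and 1247 without the 2 arrays farthest on component 1 (486 to 1606). For ketamine in normoxia they were 113 with normexp, 673 for the 2 groups alone, 1101 with array weights and 557 without the 2 farthest arrays (211 to 539). For the interaction they were 198 with normexp, 229 within slide 1, 931 with array weights, 714 without the placental lactogen arrays and 941 without the 2 farthest arrays (239 to 986).

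Normexp moved the median change of all probes from -0.02 to 0.09 after hypoxia with ketamine, from 0.02 to 0.12 for ketamine in hypoxia and from 0.03 to 0.18 for the interaction, and its values are to be read against those. The share of higher probes among those past the threshold went from 42.7% to 63.2% with normexp after hypoxia with ketamine. For ketamine in hypoxia it went from 42.5% to 53.9% with normexp and 56.9% with median scaling. For ketamine in normoxia it went from 35.1% to 52.2% with normexp, 51.1% with quantile normalization, 60.8% with median scaling and 46.8% in the deposited table.

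List genes past the threshold numbered 12, 1, 9, 0 and 2 in the same order. After hypoxia with vehicle they were 1 within slide 2 and 7 for the 2 groups alone (8 to 16 on leaving out each array). After hypoxia with ketamine they were 2 with normexp or array weights, 5 for the 2 groups alone, and 0 with the deposited table or without the placental lactogen arrays (0 to 2). For ketamine in hypoxia they were 2 and 1 within slides 1 and 2 and 5 for the 2 groups alone (5 to 14), and for ketamine in normoxia 1 within slide 2 or with array weights (0 to 1). For the interaction they were 1 with normexp, 0 within each slide and 5 with array weights (0 to 7).

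TNF after hypoxia with ketamine did not pass within slide 2 (0.94) or without the placental lactogen arrays (1.27), and ran from 0.92 to 1.88 on leaving out arrays; the interaction did not pass within slide 1 (-2.45). TNF for ketamine in normoxia was 0.037 with slide as a block and 0.30 within slide 1 (-0.31 to 0.021 on leaving out arrays). TNFRSF1A passed after hypoxia with ketamine under normexp (0.43) and for the 2 groups alone (0.41), where ketamine in normoxia passed too (-0.36). It also passed without hypoxia and vehicle replicate 4; leaving out arrays gave 0.28 to 0.47. Its interaction was -0.22 within slide 2, -0.12 without the placental lactogen arrays and -0.030 to 0.33 on leaving out arrays.

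TNFRSF11B probe 1 did not pass after hypoxia with vehicle under normexp (-0.53) or within slides 1 and 2 (-1.06, -1.01), with -1.23 to -0.61 on leaving out arrays. For ketamine in normoxia it did not pass under normexp (-0.59), within slides (-1.37, -1.03), in the deposited table (-0.59) or without the placental lactogen arrays (-0.81), with -1.43 to -0.95. Its interaction did not pass under normexp (0.83), quantile normalization (1.27), within slides (1.5, 1.19), in the deposited table (0.71) or without the placental lactogen arrays (1.21), with 0.92 to 1.58. Between the hypoxic groups leaving out arrays gave -0.22 to 0.40 by probe 1 and -0.14 to 0.94 by probe 2, and probe 2 was -0.094 after hypoxia with ketamine within slide 2. For ketamine in normoxia probe 2 passed with slide as a block (-1.69), the replicate block (-1.94), array weights (-1.66) and without replicate 4 of normoxia with ketamine (-2.15). Its interaction passed with the replicate block (2.37), array weights (2.40), without the 2 farthest arrays (2.74), and without replicate 4 of normoxia with ketamine (2.58) or replicate 2 of hypoxia with ketamine (2.46).

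TRAF3 probe 1 did not pass between the hypoxic groups under normexp (-0.22) or within slide 1 (-0.74). After hypoxia with ketamine it passed within slide 2 (-0.60), for the 2 groups alone (-0.40), with array weights (-0.46), without the placental lactogen arrays (-0.59) and without the 2 farthest arrays (-0.45), with -0.49 to -0.34 on leaving out arrays. Its interaction passed with array weights (-0.48) and without the placental lactogen arrays (-0.77), with -0.71 to -0.37. Probe 2 passed after hypoxia with ketamine with array weights (-0.38), without the 2 farthest arrays (-0.36) and without replicate 4 of hypoxia with vehicle (-0.31), and for the interaction without replicate 3 of that group (-0.59). After hypoxia with vehicle probe 1 was -0.0052 within slide 2 and -0.028 by both probes without the 2 farthest arrays, with -0.028 to 0.31 by probe 1 and -0.028 to 0.28 by probe 2. For ketamine in normoxia probe 1 was 0.034 with quantile normalization, 0.019 with median scaling, 0.017 in the deposited table, 0.12 (probe 2, 0.077) within slide 2 and 0.11 (probe 2, 0.023) without the placental lactogen arrays, with -0.11 to 0.067.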
